A study of Mus musculus with 8 samples.

Results

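The Serpin family was taken as every gene whose symbol on the array starts with Serpin. It comprised 49 genes read by 60 probes, out of 16593 named genes. Clade A held 16 of these genes with 20 probes and clade B held 25 with 29 probes. The other clades held 8 genes with 11 probes, which were Serpinc1, Serpind1, Serpinf1, Serpinf2, Serping1, Serpinh1, Serpini1 and Serpini2.

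The samples were dental tissue of the enamel maturation (Mat) stage, dissected from mandibular incisors of mice at 10 wk of age. CON mice carried the floxed Med1 allele (Med1 fl/fl) without Cre and were littermates of the KO mice, so both groups carried the floxed allele. KO mice were Med1 fl/fl with Cre driven by the keratin 14 (Krt14) promoter, which acts in epithelial cells that express Krt14 and their progeny, while other cells of the tissue keep Med1. Med1 encodes a subunit of the Mediator complex, which links transcription factors to RNA polymerase II. Each group had 4 arrays (Illumina MouseRef-8), and tissue of 3 mice was combined. Where the methods give the spread of a QPCR measurement they describe 4 samples that each combined 3 mice, and neither they nor the labels say that the arrays used those pools. The p-values therefore cover the spread among the hybridised samples alone, which may be technical. The question was which genes differed between incisor tissue that forms enamel and that of KO incisors, which generate hairs.

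Serpins share a fold with an exposed reactive loop. An inhibitory serpin offers this loop as bait, and once the protease cuts it the serpin springs shut and traps the enzyme in an inactive complex. Clade A serpins, such as alpha-1-antitrypsin, are mostly secreted and many are made by the liver. Clade B serpins mostly stay inside the cell, where several protect epithelial and myeloid cells from their own proteases, and in the mouse they lie in gene clusters on chromosomes 1 and 13. Some members inhibit nothing and serve as hormone carriers, collagen chaperones or secreted factors. Clade B serpins of the chromosome 1 cluster are known from stratified epithelia, which line the skin and mouth.

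Serpinb3a, the gene with the widest fitted difference, lies in the chromosome 1 cluster of clade B together with 4 other tested genes, and the promoter windows of these 5 are shown so that neighbours of opposite direction can be set side by side. The windows come from RefSeq (GRCm38.p6), are 300 bases long and run from 250 bases before the annotated start to 50 after it, 5′ to 3′ on the strand of the gene. Serpinb3a, Serpinb12, Serpinb11 and Serpinb2 were higher in KO and Serpinb8 was lower. Where a gene had several windows the first is shown. Capitals mark letters that matched any of 6 motifs searched on both strands, which are spelled out after the windows. A match on the opposite strand appears as its reverse complement.
Serpinb3a, chr1:107052254-107052553, minus strand: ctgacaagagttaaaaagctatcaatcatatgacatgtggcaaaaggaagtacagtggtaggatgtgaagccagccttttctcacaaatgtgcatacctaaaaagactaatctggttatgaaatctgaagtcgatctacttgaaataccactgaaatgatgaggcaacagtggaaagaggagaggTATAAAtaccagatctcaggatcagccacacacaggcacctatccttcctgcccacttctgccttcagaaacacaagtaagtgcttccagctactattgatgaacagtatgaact
Serpinb12, chr1:106934199-106934498, plus strand: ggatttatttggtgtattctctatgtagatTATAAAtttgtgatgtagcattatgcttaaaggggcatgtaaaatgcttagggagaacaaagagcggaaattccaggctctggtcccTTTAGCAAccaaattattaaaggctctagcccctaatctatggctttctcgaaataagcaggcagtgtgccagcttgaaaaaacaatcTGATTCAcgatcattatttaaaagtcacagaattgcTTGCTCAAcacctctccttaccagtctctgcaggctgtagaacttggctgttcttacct
Serpinb11, chr1:107362064-107362363, plus strand: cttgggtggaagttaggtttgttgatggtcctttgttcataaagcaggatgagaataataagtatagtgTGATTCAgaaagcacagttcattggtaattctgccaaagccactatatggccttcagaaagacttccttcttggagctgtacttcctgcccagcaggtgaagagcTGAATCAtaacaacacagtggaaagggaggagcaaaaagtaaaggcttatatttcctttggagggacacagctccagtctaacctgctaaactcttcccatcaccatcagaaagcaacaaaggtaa
Serpinb2, chr1:107511173-107511472, plus strand: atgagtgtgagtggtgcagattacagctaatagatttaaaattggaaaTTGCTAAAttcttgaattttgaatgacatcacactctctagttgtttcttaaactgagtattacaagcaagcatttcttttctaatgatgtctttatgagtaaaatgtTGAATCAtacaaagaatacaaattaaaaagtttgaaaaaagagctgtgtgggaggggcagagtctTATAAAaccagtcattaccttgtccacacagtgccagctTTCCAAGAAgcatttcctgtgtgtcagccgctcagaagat
Serpinb8, chr1:107589756-107590055, plus strand: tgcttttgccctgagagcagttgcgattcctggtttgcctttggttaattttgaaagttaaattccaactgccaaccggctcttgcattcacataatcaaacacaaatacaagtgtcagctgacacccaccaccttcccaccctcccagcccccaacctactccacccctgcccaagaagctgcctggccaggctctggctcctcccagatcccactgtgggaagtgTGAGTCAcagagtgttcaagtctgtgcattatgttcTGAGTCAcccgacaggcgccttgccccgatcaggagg

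A window was found for 42 of the 49 genes, 50 windows in all, and for 9 of the 12 genes that passed the test described further on. The AP-1 motif was searched as TGANTCA. Its letters stood in 12 of the 50 Serpin windows (24%), against 7.81% of 32851 windows of the same length over all genes. The count repeats copied sequence. The near-identical copies Serpina1a, Serpina1b, Serpina1c and Serpina1d all hold TGACTCA at -229 to -240, and the 2 windows of Serpinb2 hold the same site. Among the windows shown, AP-1 letters occurred in those of Serpinb11 and Serpinb8 at 2 places each, and in those of Serpinb12 and Serpinb2, and none stood in that of Serpinb3a. The letters of the TATA box, searched as TATAAA, stood in 14 Serpin windows (28%) against 13.6% of all windows. They were counted on either strand and at any position, from -244 to 3 from the start, so a match need not be a TATA box. The C/EBP motif, searched as TTGCNNAA, was found in 15 (30%) against 10.8%, and this count includes the same TTGCTTAA in the copies Serpina1a, Serpina1b, Serpina1d and Serpina1e. For the Sp and KLF factors GGGCGG was found in 7 Serpin windows (14%) and in 35.7% of all windows. The STAT motif TTCNNNGAA occurred in 7 (14%) against 8.3% of all windows. The Grainyhead motif, searched as AACCGGTT, occurred in 0 Serpin windows and in 0.146% of all windows. Of the 8 windows of genes higher in KO, 5 held AP-1 letters, 5 TATA box letters, 4 C/EBP letters and 2 STAT letters. Sp and KLF letters stood in 0 of the 8, and Grainyhead letters in 0. The 2 windows of Serpinb2 overlap and share matches. Serpina9, Serpinb1a and Serping1, also higher in KO, had no window. No match overlapped another in the windows of the genes that passed. Serpinb8, with the AP-1 letters at -23 and 13 from its start, was lower in KO. It lay close to background, and with the deposited normalized values its call was lost (-0.14, limma adjusted p = 0.05). AP-1 letters also stood in the windows of Serpinb5, Serpinb7 and Serpinb10 of the same cluster, which no array detected. A match is a run of letters and was not tested as a binding site.

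Over the 8 arrays the mean intensity of a probe was 550.8 to 811.9, and 11554 to 13134 probes were detected (detection p under 0.01). The correlation between arrays was 0.994 to 0.995 within groups and 0.962 to 0.967 between them. For Med1, the targeted gene, the tested probe gave log2 levels of 8.06 to 8.58 in CON and 7.30 to 7.67 in KO, and it fell by 0.76 ± 0.13 (SE, limma adjusted p = 0.00075). All 8 ameloblast markers on the array were detected on enough arrays to be tested, 3 higher, 3 lower and 2 not past, against 24.4% higher and 36.5% lower of all tested genes. Their mean log2 level was 11.20 to 11.25 on the CON arrays and 11.20 to 11.40 on the KO arrays. The tissue is a mixture of cell types, in which fewer cells of a type and less RNA per cell cannot be told apart.

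Most Serpin genes were not detected on these arrays. No probe was detected on any array for 29 of the 49 genes (59.18%), against 6649 of the 16593 named genes (40.07%). For 15 genes a probe was detected on at least 4 of the 8 arrays and could be tested, and 5 more genes were detected on fewer arrays. Of the 15 tested genes 9 were higher in KO, 3 were lower and 3 did not pass an adjusted p of 5% (limma with Benjamini-Hochberg adjustment over all tested probes). Among all 9085 tested genes 60.9% passed, 24.4% higher and 36.5% lower. The median log2 difference of the 15 was 0.48, and that of all tested genes was -0.12. With the genes below background in CON set at their bound the Serpin median was also 0.48.

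With genes undetected in a whole group held at their lower bound, 5 of the 15 were at least 2-fold higher and 1 was at least 2-fold lower, while 8.94% of all tested genes rose and 3.94% fell by as much on the same terms. The groups of 4 arrays did not overlap for 12 of the 15 genes, against 56.8% of all tested genes. The filter admits a gene through either group, and 4 of the 15 passed only through KO (Serpina1b, Serpina9, Serpinb1a and Serpinb2). Among the 11 detected in both groups, 5 were higher and 3 lower, against 21.9% and 37.5% of the 8741 genes of that kind, of which 59.4% passed in either direction. When arrays were normalized by cyclic loess the median of all genes moved to 0.03, and the split over all probes turned from 2878 higher and 4787 lower to 3731 and 2850. Of the Serpin genes 9 were then higher and 2 lower.

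**Figure D1:**
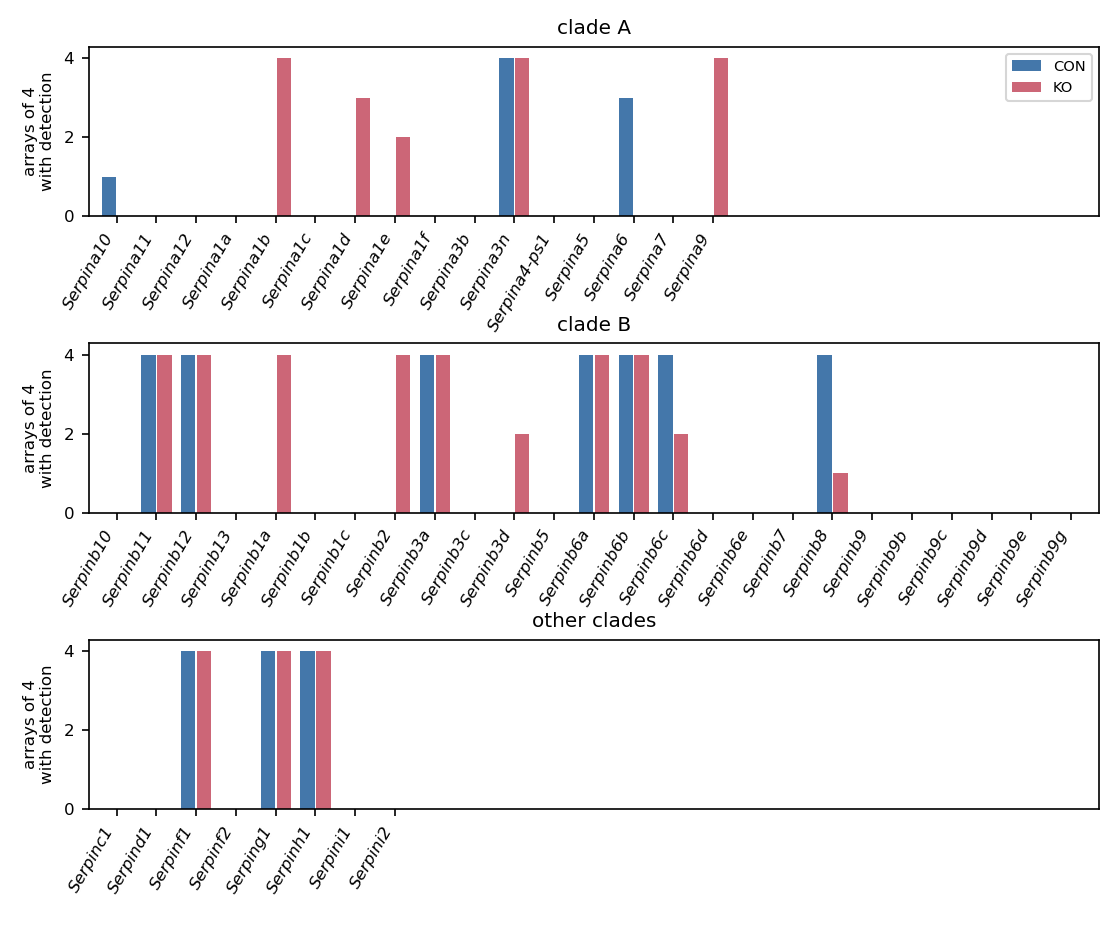
Number of the 4 CON arrays (blue) and 4 KO arrays (red) on which the best-detected probe of each Serpin gene had a detection p under 0.01, for clade A, clade B and the other clades. In 29 of the 49 genes both bars are at 0, and Serpina1b, Serpina9, Serpinb1a and Serpinb2 have KO bars of 4 and CON bars of 0.

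Clade B, with the most genes, also gave the most tested members. Of its 25 genes 9 were tested, 5 higher, 3 lower and 1 not past the threshold, with a median log2 difference of 0.40. The remaining 16 comprised 15 that were undetected on every array and Serpinb3d. The genes of chromosome 1 and those of chromosome 13 had different counts, which were not tested against each other. On chromosome 1, 5 of 11 genes were tested, 4 higher and 1 lower, median 2.04. On chromosome 13, 4 of 14 were tested, 1 higher, 2 lower and 1 not past, median -0.46. Of all tested genes 24.4% were higher and 36.5% lower, median -0.12, and counts this small are not read as a departure from that share.

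Serpinb3a had the largest fitted rise of the tested Serpin genes. It belongs to the mouse counterparts of the human squamous cell carcinoma antigens, of which human SERPINB3 inhibits cysteine proteases such as cathepsins L, K and S. Its brighter probe read 7.14, 7.06, 7.27 and 7.45 on the 4 CON arrays and 12.89 to 13.10 on the 4 KO arrays (log2 level). Before normalization these were intensities of 217.0, 215.8, 255.9 and 297.1 in CON and of 7417, 9875, 7624 and 8019 in KO. The groups were far apart and each was tight. KO exceeded CON by 5.75 ± 0.10 (SE) on the log2 scale, 53.9-fold (adjusted p = 1.5e-10), and by 5.01 with the deposited normalized values. The other probe of Serpinb3a was undetected on all CON arrays (4.66 to 5.15) and read 9.39 to 9.62 in KO, at least 16.3-fold higher (adjusted p = 7.1e-10). Here and later, "at least" sets the KO mean against a floor averaged over the CON arrays. On each array the floor is the probe's own value or the lowest detected value there, whichever is higher. For Serpina6 and Serpina10, undetected in KO, the CON mean is set against the floor of the KO arrays instead. Such a bound holds only under the background correction used here. Without that correction the tested Serpin genes undetected in CON had fitted differences below their bounds. The near-identical copies Serpinb3c and Serpinb3d share sequence with Serpinb3a, so part of a signal may come from a copy, and the assignment within this group is uncertain.

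Serpinb3d itself was detected on 2 KO arrays. It read 4.61, 4.86, 4.51 and 4.44 in CON and 5.48, 5.77, 5.08 and 4.52 in KO, and the groups overlapped. Serpinb3c was undetected on every array.

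Serpinb2 encodes plasminogen activator inhibitor type 2, which blocks urokinase and is known from keratinocytes and activated macrophages. It read 4.55, 4.71, 4.52 and 4.82 in CON, where no array detected it, and 8.60, 8.87, 8.90 and 8.75 in KO. All KO arrays lay above all CON arrays, at least 9.78-fold (3.29 on the log2 scale, adjusted p = 5.7e-10), but without background correction the log2 difference was 2.09.

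Serpinb12, whose human counterpart inhibits trypsin-like proteases, was already clearly detected in CON. It read 10.94, 10.82, 10.86 and 10.88 in CON and 12.83, 12.97, 12.86 and 12.99 in KO. This was a rise of 2.04 ± 0.07 (SE), 4.11-fold (adjusted p = 5.9e-09). Its other probe gave 10.11 to 10.29 in CON and 12.28 to 12.54 in KO, a rise of 2.19 ± 0.08 (SE, adjusted p = 9.7e-09), so both probes moved by a similar amount.

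The other detected genes of the chromosome 1 cluster moved far less. Serpinb11, an inhibitor in the mouse whose human counterpart has lost that activity, was at 10.68 ± 0.06 in CON and 11.08 ± 0.24 in KO (SD, n = 4 each). The difference was 0.40 ± 0.11 (SE), 1.32-fold (adjusted p = 0.012), and with median scaling of the arrays it was 0.23 (adjusted p = 0.13). Serpinb8, whose human counterpart can inhibit furin, lay close to background at 5.62 ± 0.19 in CON and 5.15 ± 0.22 in KO (SD, n = 4 each), detected on all 4 CON arrays and on 1 KO array. It fell by 0.48 ± 0.13 (SE, adjusted p = 0.0095), a call that was lost with the deposited normalized values, where the difference was -0.14 (adjusted p = 0.05).

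The remaining chromosome 1 members were undetected on all arrays. They were Serpinb5 (maspin, a non-inhibitory serpin of epithelial cells), Serpinb7, Serpinb10, Serpinb13 (known from human keratinocytes) and Serpinb3c. In the order of the genes along the chromosome, the 4 higher genes were not neighbours. Serpinb13 stood between Serpinb12 and Serpinb3a, and Serpinb7 between Serpinb11 and Serpinb2.

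**Figure D2:**
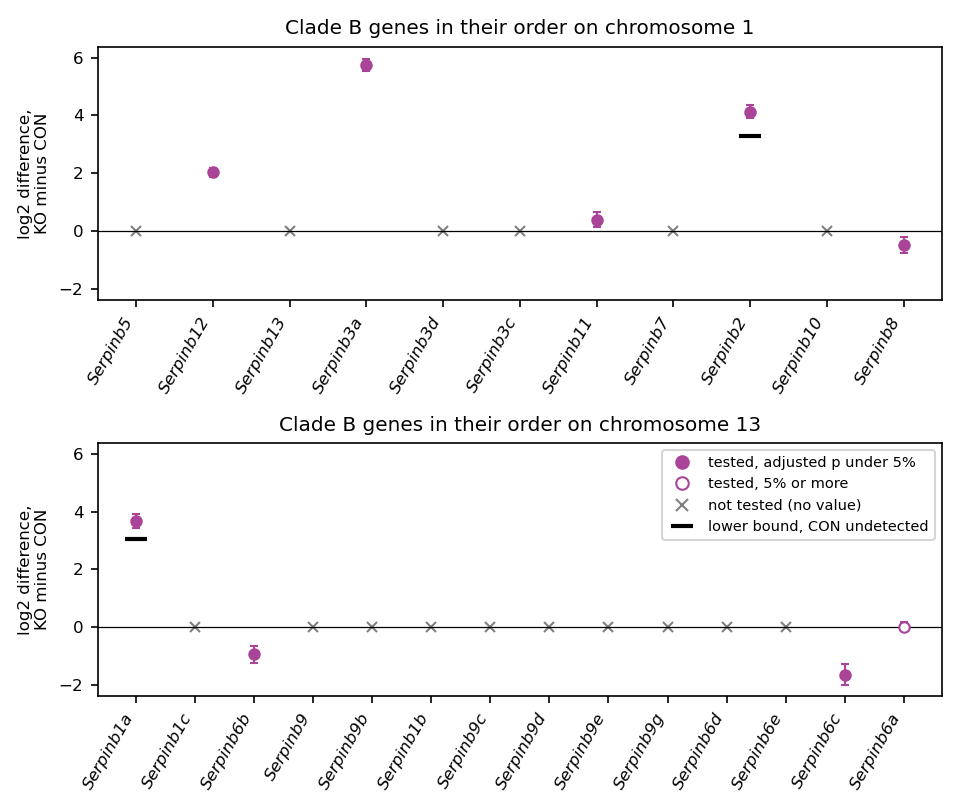
Log2 difference in level, KO minus CON, of the clade B genes in their order along chromosome 1 (above) and chromosome 13 (below), with 95% confidence intervals from limma. Filled points passed an adjusted p of 5%, the open point did not, and crosses at 0 mark genes that were not tested and have no value. Serpinb2 and Serpinb1a were undetected in CON, so their points are fitted against background. Black bars mark their lower bounds at 3.29 and 3.04, under the background correction used here. Serpinb3a, detected in both groups, stands at 5.75.

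On chromosome 13 the tested members went in different directions. Serpinb1a, the counterpart of human leukocyte elastase inhibitor, which blocks the neutrophil proteases, was undetected on all CON arrays at 5.01, 4.83, 5.06 and 4.61. In KO it read 8.55, 8.56, 8.65 and 8.39. This was at least 8.25-fold higher (3.04 on the log2 scale, adjusted p = 2.3e-09), but without background correction the log2 difference was 1.83. Its close relatives Serpinb1b and Serpinb1c were undetected on every array. Close copies can share signal here too.

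The Serpinb6 genes, related to a human inhibitor of cathepsin G, were divided. Serpinb6c read 7.06, 7.16, 6.78 and 7.23 in CON and 5.17, 5.68, 5.11 and 5.71 in KO, where 2 of 4 arrays detected it. Every KO array was below every CON array, and the level fell by 1.64 ± 0.16 (SE) on the log2 scale (adjusted p = 1.3e-05). The size depended on the background correction, and with the deposited normalized values the difference was -0.69 (adjusted p = 4e-07). Serpinb6b was at 8.40 ± 0.29 in CON and 7.46 ± 0.08 in KO (SD, n = 4 each) and fell by 0.94 ± 0.13 (SE, adjusted p = 0.00017). Serpinb6a was at 12.60 ± 0.06 and 12.63 ± 0.08 (SD, n = 4 each), a difference of 0.02 with a 95% interval from -0.13 to 0.18 (adjusted p = 0.78). Serpinb6d and Serpinb6e were undetected everywhere. The members are similar in sequence, so the signal of 1 probe may include a relative, and levels of different probes were not set against each other.

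All 6 Serpinb9 genes on the array (Serpinb9, Serpinb9b, Serpinb9c, Serpinb9d, Serpinb9e and Serpinb9g) were undetected on every array. Serpinb9 inhibits granzyme B, a protease of cytotoxic lymphocytes, and its target Gzmb was also undetected on all 8 arrays.

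**Figure D3:**
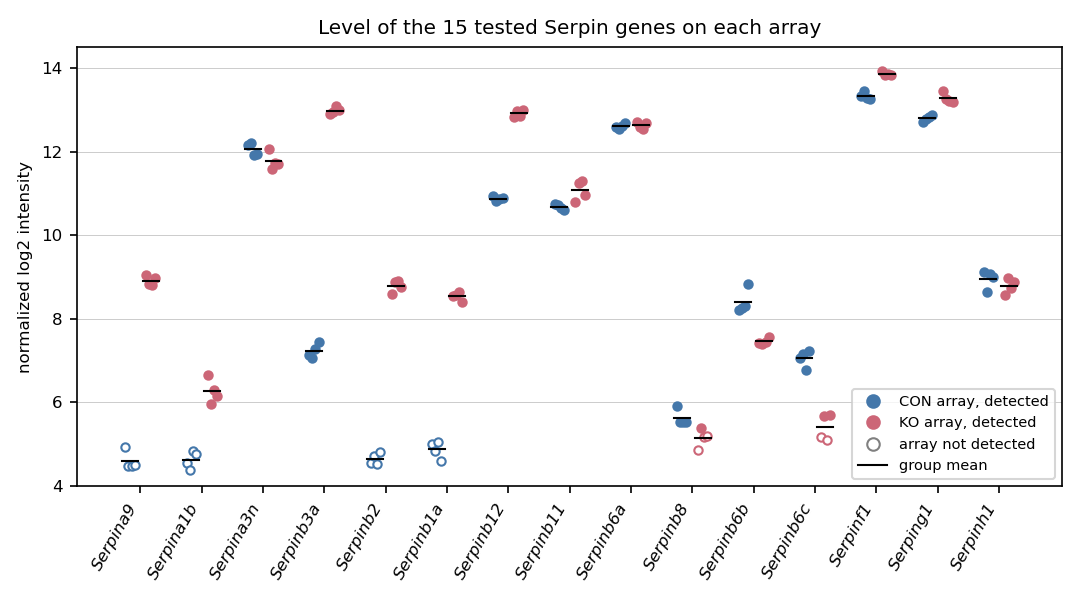
Normalized log2 intensity of the 15 tested Serpin genes on each of 4 CON arrays (blue) and 4 KO arrays (red), ordered by clade A, clade B and the other clades and by difference within each. Open circles are arrays on which the probe was not detected and black lines are group means, and levels of different genes are not comparable because they come from different probes. The CON arrays of Serpinb3a lie between 7.06 and 7.45 and its KO arrays between 12.89 and 13.10.

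In clade A few genes could be tested. Of its 16 genes 9 were undetected on every array, 3 were tested and 4 were detected on 1 to 3 arrays. All lie on chromosome 12 except Serpina7, the thyroxine carrier, which is on the X chromosome. Of the 3 tested genes 2 were higher in KO and 1 did not pass, median 1.63, or 0.77 with the genes below background in CON at their bound. Of all tested genes 60.9% passed, and 24.4% of all tested genes were higher in KO.

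Serpina9 changed most in this clade. Its human counterpart, centerin, is known from germinal centre B cells. It was undetected on every CON array at 4.93, 4.48, 4.47 and 4.50, and it read 9.05, 8.82, 8.81 and 8.97 in KO. The rise was at least 10.7-fold (3.42 on the log2 scale, adjusted p = 1.4e-09), but without background correction the log2 difference was 2.23. A list of 10 B cell and germinal centre genes on the array, chosen after the value of Serpina9 was seen, had 4 tested genes, of which Cd79b was higher by 0.63 (log2, and 0.23 with the deposited normalized values), Blnk was higher by 0.42 (adjusted p = 0.0051, and 0.13 at a difference of 0.24 when the probes of the gene were averaged), Bcl6 was higher by 0.20 (adjusted p = 0.049, and 0.058 to 0.12 when any of 6 of the 8 arrays, all but the third CON and the fourth KO array, was left out) and S1pr2 did not pass (0.42, adjusted p = 0.088, and 0.0052 without the third CON array or 0.047 without the first KO array). Ms4a1, Pax5 and Cr2, which define B cells or are made by them, were undetected on all 8 arrays, and Cd79a was detected on 2 KO arrays.

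The Serpina1 genes encode alpha-1-antitrypsin, the plasma inhibitor of neutrophil elastase, in several near-identical copies that array probes can confuse. Serpina1b was undetected in CON at 4.55, 4.39, 4.83 and 4.77 and read 6.65, 5.96, 6.29 and 6.16 in KO. This was at least 1.71-fold higher (0.77 on the log2 scale, adjusted p = 9e-06), but without background correction the log2 difference was 0.53. Its other probe was detected on 0 CON and 3 KO arrays. Serpina1d read 4.40, 4.36, 4.55 and 4.84 in CON and 5.80, 5.38, 5.28 and 5.26 in KO, detected on 3 KO arrays. Serpina1e read 4.60, 4.68, 4.67 and 4.65 in CON and 4.89, 5.57, 5.37 and 5.19 in KO, detected on 2 KO arrays. In both genes all KO values lay above all CON values. The KO means did not exceed the floor averaged over the CON arrays, so no fold is given. Serpina1a, Serpina1c and Serpina1f were undetected on every array. Of 10 liver and plasma protein genes 7, including Alb, were undetected on every array, while Hp rose by 2.81 (log2) and Fgg fell by 2.43.

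Serpina3n, an inhibitor that rises in inflammation, was bright and close to the threshold. It was at 12.06 ± 0.15 in CON and 11.78 ± 0.21 in KO (SD, n = 4 each), a difference of -0.28 ± 0.12 (SE, adjusted p = 0.059), and the groups overlapped. Without the first KO array the difference was -0.38 (adjusted p = 0.0095).

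The glucocorticoid carrier gene Serpina6 was detected in CON alone. It read 5.59, 5.86, 5.82 and 6.08 in CON, where 3 arrays detected it, and 5.18, 4.50, 4.78 and 4.99 in KO, where none did. Every KO value was below every CON value, and CON was at least 1.47-fold higher, without a test because too few arrays passed the filter. Serpina10, the protein Z dependent inhibitor of factor X, was detected on 1 CON array. When every probe with a detection p under 0.05 on at least 1 array was tested, the adjusted p was 0.0005 for Serpina6 and 0.00074 for Serpina10, both lower in KO and undetected there, and CON was at least 1.06-fold higher for Serpina10. Under that filter Serpina1d (adjusted p = 0.00065) and Serpina1e (adjusted p = 0.0038) also passed, as did Serpina1a and Serpind1, which no array detected at the stricter limit, so these values show no measured change.

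The other clades had 3 tested genes, all detected on all 8 arrays. Serpinf1 encodes pigment epithelium derived factor, a secreted non-inhibitory serpin that restrains vessel growth. It was at 13.33 ± 0.08 in CON and 13.86 ± 0.04 in KO (SD, n = 4 each), higher by 0.53 ± 0.07 (SE), 1.44-fold (adjusted p = 0.0001). Serping1 encodes the C1 inhibitor, which restrains the complement proteases C1r and C1s and plasma kallikrein. It was at 12.80 ± 0.07 and 13.28 ± 0.12 (SD, n = 4 each), higher by 0.48 ± 0.08 (SE), 1.39-fold (adjusted p = 0.00065). In both genes no KO array overlapped CON.

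Serpinh1 encodes Hsp47, a chaperone of procollagen in the endoplasmic reticulum that inhibits no protease. It was at 8.95 ± 0.22 in CON and 8.79 ± 0.18 in KO (SD, n = 4 each), a difference of -0.17 with a 95% interval from -0.45 to 0.12 (adjusted p = 0.28). Serpinc1 (antithrombin), Serpind1 (heparin cofactor 2), Serpinf2 (the plasmin inhibitor), Serpini1 (neuroserpin) and Serpini2 were undetected on every array.

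**Figure D4:**
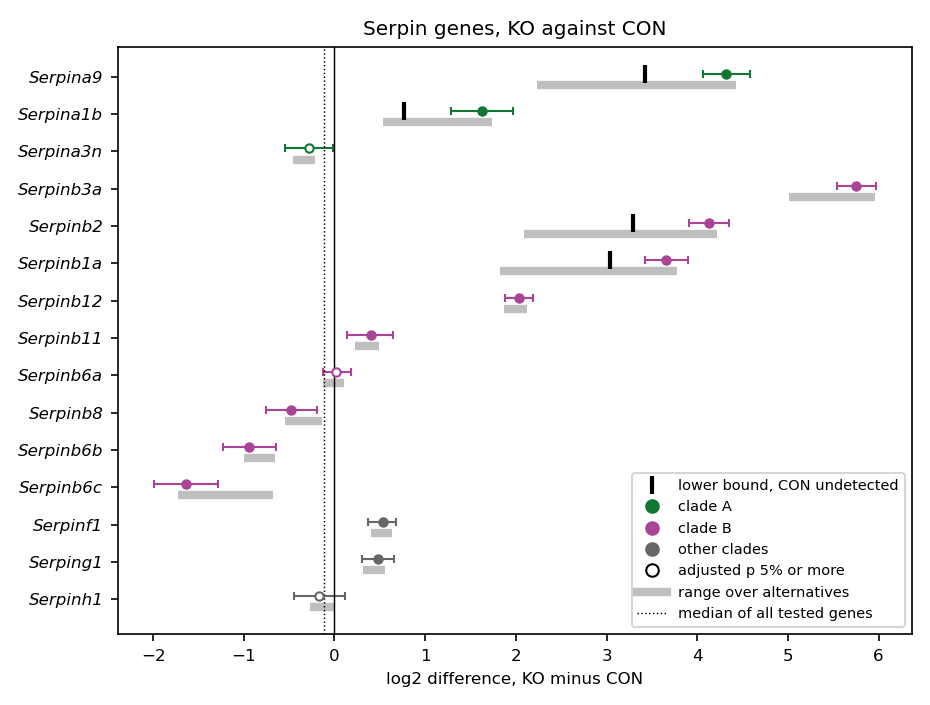
Log2 difference in level, KO minus CON, of the 15 tested Serpin genes with 95% confidence intervals from limma, coloured by clade. Filled points passed an adjusted p of 5%, grey bars span the differences over the alternative processing settings, and the dotted line is the median of all tested genes at -0.12. Serpina9, Serpina1b, Serpinb2 and Serpinb1a are undetected in CON, so their points are fitted against background and black bars mark their lower bounds at 3.42, 0.77, 3.29 and 3.04, and their grey bars reach down to 2.23, 0.53, 2.09 and 1.83.

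The proteases that serpins are known to inhibit were read beside them. Of 27 such genes 11 were tested, 9 higher in KO, 0 lower and 2 not past, with a median log2 difference of 0.93, and 14 were undetected on every array. Of all tested genes 24.4% were higher and 36.5% lower, median -0.12, and this share stands beside the counts of the later lists too. Ctss, Ctsg and F10 were undetected in CON and passed the filter only through KO, where they were high. In the later lists too, a gene undetected in a whole group entered only through the other. The count of higher proteases is therefore not read as a departure from that share. Plau, the urokinase that Serpinb2 blocks, rose by 1.90 ± 0.09 (SE), 3.73-fold (adjusted p = 6.4e-08). The other activator Plat and plasminogen itself (Plg) were undetected. The cysteine proteases Ctsk and Ctss rose, Ctsk by 1.48 ± 0.08 (SE, adjusted p = 1.3e-07) and Ctss at least 5.45-fold (adjusted p = 5.3e-07). Ctsl differed by 0.15 (adjusted p = 0.21). With cyclic loess Ctsl passed at a difference of 0.40 (limma adjusted p = 0.0067). It also passed without the second CON array, at 0.24 (limma adjusted p = 0.03).

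The neutrophil proteases blocked by human leukocyte elastase inhibitor were low but higher in KO. Elane rose by 0.93 (adjusted p = 0.00069) and Prtn3 by 0.69 (adjusted p = 0.0027) on the log2 scale, or by 0.32 and 0.24 with the deposited normalized values, and Ctsg, undetected in CON, was at least 1.36-fold higher (adjusted p = 0.0012). F10, the clotting factor that antithrombin and Serpina10 restrain, was undetected in CON and at least 3.87-fold higher in KO (adjusted p = 3.8e-07). St14 and Prss8, membrane proteases of epithelia, rose by 1.02 (adjusted p = 2.5e-05) and 0.60 (adjusted p = 0.00064). For the targets of Serping1, C1s1 differed by -0.10 (adjusted p = 0.53) and C1ra was undetected.

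A list of 12 genes of plasminogen activation without serpins overlaps the proteases above, since Plau, Plat and Plg are in both. Of the 12 genes 9 were tested, with 6 higher and 3 not past, median 0.80. Besides Plau these included Lrp1, the receptor that clears serpin and protease complexes, which rose by 0.82 ± 0.08 (SE, adjusted p = 1.5e-05). Thbd, which encodes thrombomodulin, rose by 1.08 (adjusted p = 2.2e-05), the plasminogen receptor subunit S100a10 by 0.80 (adjusted p = 0.00012) and the urokinase receptor Plaur by 1.08 (adjusted p = 0.00066).

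Among 18 protease inhibitors of other families 9 were tested, 6 higher, 1 lower and 2 not past, median 0.38. Wfdc12 rose by 4.53 ± 0.10 (SE, adjusted p = 4.6e-10) and Slpi, the secreted inhibitor of leukocyte elastase, by 3.60 ± 0.10 (SE, adjusted p = 1.4e-09). Wfdc2 rose by 1.18 (adjusted p = 9.4e-07), the cystatin gene Stfa1 was at least 2.03-fold higher (adjusted p = 2.9e-06), and Spint2, an inhibitor of epithelial membrane proteases, fell by 0.61 (adjusted p = 0.0031).

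Serpinh1 was read beside 16 genes of collagen folding and processing, all tested, of which 7 were higher, 3 lower and 6 not past, median 0.12. The number that passed is near the share of 60.9% over all tested genes. Lox, the collagen crosslinking enzyme, rose by 1.27 ± 0.08 (SE, adjusted p = 5.6e-07). Col1a2 rose by 0.72 (adjusted p = 3.5e-05), Col5a1 by 0.56 (adjusted p = 3.6e-05) and the lysyl hydroxylase gene Plod2 by 0.53 (adjusted p = 0.00038), while Col1a1 differed by 0.11 (adjusted p = 0.4).

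Markers of other cell types moved with the groups. All 9 tested squamous epidermis markers were higher in KO, median 4.04, and the mean log2 level of the 11 on the array was 6.68 to 7.0 in CON and 9.95 to 10.02 in KO. Among them Krt10 rose by 3.87, Cdsn by 5.46 and Krtdap by 4.04 on the log2 scale, and Lce1b, undetected in CON, was at least 20.2-fold higher. Of 8 basal epithelium markers 5 fell, with Krt5 at -0.98, and none rose. These values stand beside those of Serpinb3a, Serpinb12, Serpinb2 and Serpinb11, and their part in the result was not tested.

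All 8 tested macrophage markers were higher (10 on the array, mean level 6.91 to 7.04 in CON and 8.85 to 8.96 in KO), with Lyz2 at 3.72 and Cd14 at 3.98. All 11 tested neutrophil markers were higher (12 on the array, 7.24 to 7.37 and 8.61 to 8.77), with Retnlg at 2.50 and S100a9 at 2.18. Elane and Prtn3 are in this list as well as among the proteases. Platelet and mast cell markers were higher in all 3 and 2 tested genes, with Ppbp at 4.03 and Hdc at 4.11. The part of these cells in the values of Serpinb1a, Serpinb2, Serpina9 and Serpina1b was not tested.

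Markers of skeletal muscle, of fibroblasts and related cells, of endothelium and of salivary gland differed too in these mixed samples. The source of their RNA was not tested. All 9 tested skeletal muscle markers were higher (mean level 8.64 to 8.74 in CON and 10.59 to 10.80 in KO), and 5 of 9 tested markers of fibroblasts, osteoblasts and odontoblasts and 4 of 7 of endothelium were higher, with none lower. For fibroblasts and related cells the mean level was 10.33 to 10.36 in CON and 10.65 to 10.77 in KO, and for endothelium 8.48 to 8.65 and 8.85 to 9.01. These values stand beside the rise of Serpinf1 and Serping1, and their part in it was not tested. Salivary gland markers fell in 5 of 6 tested genes (7 on the array, mean level 7.82 to 8.01 in CON and 5.55 to 5.87 in KO), with Scgb1b2 at -4.52 and Scgb2b24 at -4.27, while Bpifa2 rose by 0.87. Serpinb6c, Serpinb6b, Serpinb8 and Serpina6 were lower in KO as well. So were 5 of 8 basal epithelium markers (0 higher), 3 of 8 ameloblast markers (3 higher) and 36.5% of all tested genes. The part of any of these cells in the lower Serpin genes was not tested.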

How the data were processed

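The authors extracted total RNA from the dissected tissue, hybridised labelled RNA to Illumina MouseRef-8 v2.0 arrays and summarised beads in GenomeStudio, as the submitters' processing notes name it, with the version not given in the sources used here. In the deposited table without normalization stands the mean bead intensity of each of 25697 probes per array on a linear scale, next to a deposited detection p-value against the negative control beads. The intensity table that the authors normalized in GenomeStudio served as an alternative. No column was left unused.

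Values on the log2 scale were computed here from the deposited intensities with the neqc function (limma 3.58.1, R 4.3.3) (control distribution inferred from the detection p-values, offset of 16, quantile normalization). Probes with a detection p under 0.01 on at least 4 of 8 arrays were tested, 12838 in all. The contrast of KO with CON was fitted with lmFit and eBayes, two-sided, without covariates, with Benjamini-Hochberg adjustment at 5%. A gene stands at its brightest tested probe. Symbols came from the platform annotation, which named 23978 probes, and all 60 Serpin probes had a gene identifier in the reference table. Array number and signal over background limit the precision. The code was tested on simulated data. The members and gene lists were chosen with earlier results of these data known. Values on every array are given for Serpin genes past the threshold with a log2 difference of at least 1 in size and for untested ones detected on at least 2 arrays, and the others are given as means or by counts. From other lists up to 4 genes were named by the size of the moderated statistic. Some others (among them the neutrophil and epithelial proteases, Ctsl, C1s1, C1ra, Plat, Plg, Gzmb, Plaur, Spint2, Col1a1, Alb, S1pr2, Cd79a, Ms4a1, Pax5, Cr2 and Bpifa2) were named after their values were seen. In all, 23 alternatives were tried, including another normalization, other filters and leaving out each array.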

Additional observations from a re-analysis of the deposited data

Results flagged for a closer look

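Within the groups of 4 arrays of the tested Serpin genes, an array far from the other 3 was sought by Dixon's ratio of the end gap to the range. Of 30 groups 2 exceeded the critical value, and chance gives about 1 in 20. In CON the level of Serpinb6b was 8.83 on the fourth array and 8.21 to 8.30 on the others (ratio 0.851). Without that array the difference between KO and CON was -0.79 on the log2 scale in place of -0.94, with an adjusted p of 3.3e-05 from limma. The level of Serpinb8 was 5.92 on the first CON array and 5.52 to 5.53 on the others (ratio 0.962). Without that array the difference was -0.38 in place of -0.48, with an adjusted p of 0.023 from limma.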

How the results depend on the processing

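The count of 9 higher and 3 lower Serpin genes depended on the filter. With only probes detected on all 8 arrays 9 genes were tested, 5 higher and 1 lower, while a detection p under 0.05 on at least 1 array gave 12 higher and 6 lower of 26 tested, and no filter also 12 and 6 of 49, where the added 3 and 3 genes were undetected in at least 1 whole group. Over all probes cyclic loess gave 2850 lower in place of 4787, and the methods' test at an unadjusted p under 0.005 gave 2970. That test found 8 Serpin genes higher and 2 lower, and 9 and 3 after Benjamini-Hochberg adjustment. Leaving out each array in turn gave 9 higher Serpin genes each time and 3 to 4 lower, with 2716 to 2791 probes higher and 4349 to 4597 lower. The fourth lower gene, Serpina3n, passed in 7 of 23 alternatives. Serpinb11 lost its call under median scaling, the methods' test and a 1% threshold, and Serpinb8 under the deposited values, no background correction (-0.14), cyclic loess (-0.31) and the methods' test. No direction among genes that passed was reversed. Without background correction the log2 difference of Serpina9 was 2.23, of Serpinb2 2.09, of Serpinb1a 1.83, of Serpina1b 0.53 and of Serpinb6c -0.68, since background left in the signal compresses differences. For 73 other genes 1637 of 1664 values kept their side of the threshold, 22 lost their call, 5 gained it and 0 were reversed. Median scaling moved the median of all genes to -0.21. Arrays with the same replicate number did not deviate together (correlations from -0.01 to 0.02, and 0 of 8 arrays correlated best with their own number). With the replicate block 9 Serpin genes were higher and 3 lower, and 2796 probes higher and 4594 lower, so the numbers were not used as pairs.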
